A study of Mus musculus with 9 samples.

Results

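Insulin-like growth factor 1 (Igf1), its receptors Igf1r and Insr, and the binding proteins Igfbp1 to Igfbp7 were followed between mouse embryonic stem cells (ESCs) and embryoid bodies, the aggregates in which ESCs differentiate. These 10 genes were chosen by name, with earlier results of these data known. Their probe sets were all those that the array's annotation pairs with 1 of these symbols alone. They were 28 of the 45037 probe sets other than controls, and 10 of the 18193 genes with a probe set of their own. RNA of the E14 ESC line was hybridized to 4 Affymetrix mouse genome arrays (labelled 2, 6, 8 and 10), and RNA of embryoid bodies from E14 cells to 5 (labelled 1, 3, 5, 7 and 9). Both groups are labelled as untreated, no allele, transgene or strain is given for either, and the labels give no day of differentiation. The methods state 4 biological replicates for E14 ESCs and do not describe the embryoid bodies. They do not say which samples came from separate cultures, so p-values measure the spread between these samples, which may be technical.

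Igf1 and the related Igf2 are secreted ligands that signal through Igf1r, a receptor tyrosine kinase. Insr, the insulin receptor, is its closest relative and forms hybrids with it. The binding proteins hold the ligands outside the cell, where they prolong their life, keep them from the receptor or release them after cleavage by proteases. Igfbp1 to Igfbp6 bind these ligands tightly, and Igfbp7 binds them only weakly and is mostly known as a protein of the matrix and of vessels. In the mouse embryo the pathway sets growth, with Igf2 as the main ligand before birth.

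Values are the log2 of the deposited GCRMA intensities, a scale on which a difference of 1 is a doubling. Probes differ in how strongly they bind, and levels are therefore compared between arrays and not between probe sets. Values ran from log2 1.09 to 15.19, and a probe set under log2 4 is described as near the floor, as were 49.1% to 49.9% of them per array. Array medians were 4.01 to 4.09. Within each group the arrays numbered up to 6 stood apart from those numbered from 7. Pearson's r across probe sets was 0.998 between ESC arrays of the same number range and 0.995 to 0.996 between ranges, and 0.998 to 0.999 against 0.997 to 0.998 for embryoid bodies. The labels do not say what the numbers stand for, so changes within each range are given below. Of 10 pluripotency markers, 9 fell in embryoid bodies. Of 12 mesenchyme markers 10 rose, of 10 cardiac and smooth muscle markers 7, and of 5 markers of embryonic blood 3. Of 7 endothelial markers 5 rose, of 10 visceral endoderm and liver markers 2 rose, and of 8 neural markers 1 rose and 2 fell. Over all genes, 15.7% rose and 14.7% fell in the test described next.

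Each probe set was compared by limma, a linear model with variances shared across probe sets, and called at a Benjamini-Hochberg adjusted p under 0.05 over all 45037. A gene was represented by its probe set with the highest mean over the 9 arrays. By this rule 5 of the 10 genes rose in embryoid bodies (Igf1, Igf1r, Igfbp2, Igfbp4 and Igfbp7), against 15.7% of all genes. Igfbp3 alone fell, against 14.7% of all genes, and 4 did not pass (Insr, Igfbp1, Igfbp5 and Igfbp6). The median difference was 0.39 over the 10 genes and -0.04 over all genes. Since the 10 genes were chosen with earlier results of these data known, their counts beside these shares are a description and not a test. For Igfbp5 the outcome depends on the probe set, since the second of its probe sets showed the largest rise of all 28. Of the 28 probe sets 13 were called higher, against 10.5% of all probe sets, and 3 lower, against 10.6%. On 8 of them every array lay near the floor.

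**Figure D1:**
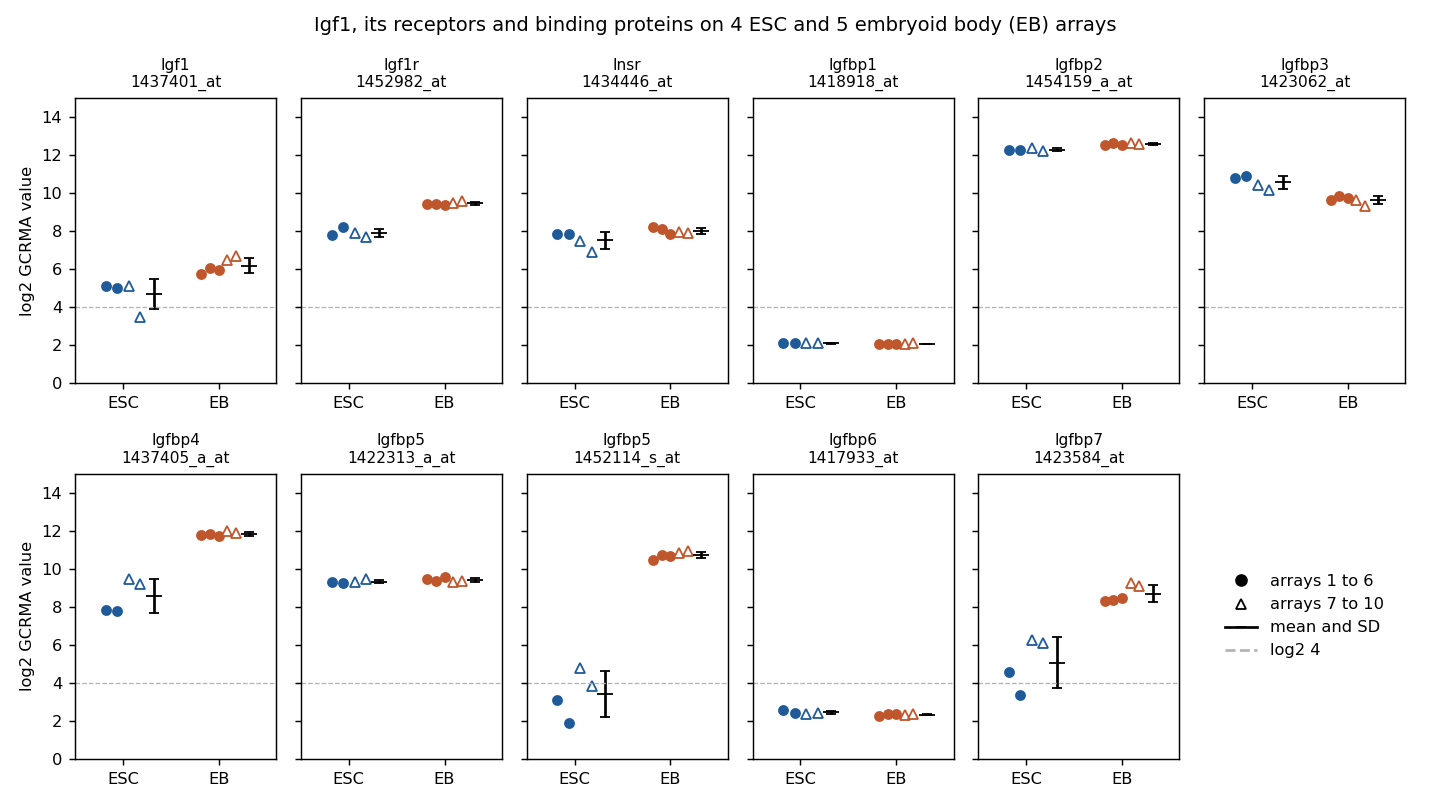
Log2 GCRMA value (vertical axis) on each of 4 ESC and 5 embryoid body (EB) arrays for the probe set that represents each gene, and for the other Igfbp5 probe set. Filled circles are arrays 1 to 6 and open triangles arrays 7 to 10, the bars are mean and SD, and the dashed line marks log2 4. Igf1, Igf1r, Igfbp2, Igfbp4, Igfbp7 and Igfbp5 1452114_s_at are higher on every embryoid body array than on any ESC array, and Igfbp3 is lower.

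Igf1, the ligand, rose in embryoid bodies from a level close to the floor. On probe set 1437401_at the ESC arrays 2, 6, 8 and 10 read 5.13, 5.02, 5.12 and 3.50, and the embryoid body arrays 1, 3, 5, 7 and 9 read 5.74, 6.06, 5.95, 6.49 and 6.67. Array 10 lay well below the other ESC arrays, and every embryoid body array lay above them all. Means were 4.69 ± 0.79 (SD, n = 4) and 6.18 ± 0.39 (SD, n = 5), a log2 difference of 1.49 ± 0.36 (SE), or 2.81-fold (limma, adjusted p = 0.0149). Without array 10 the difference was 1.09 (limma, adjusted p = 0.00598). It was 0.84 within arrays 1 to 6 and 2.27 within arrays 7 to 10, where the call was lost (limma, adjusted p = 0.0716).

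The other Igf1 probe sets gave no call in the fit over all arrays without further terms. Probe set 1434413_at read 2.80 to 2.84 on the ESC arrays and 3.73, 3.11, 3.11, 4.88 and 4.59 on embryoid body arrays 1, 3, 5, 7 and 9. The groups did not overlap, and only arrays 7 and 9 stood above log2 4. The difference of 1.07 ± 0.37 (SE) missed the threshold over all arrays (limma, adjusted p = 0.0719). It passed with number range as a term in the fit, at 1.15 (limma, adjusted p = 0.0198), and within arrays 7 to 10, at 1.93 (limma, adjusted p = 0.00148). It also passed without embryoid body array 3 or 5 (limma, adjusted p = 0.041 and 0.0405). Probe sets 1419519_at and 1452014_a_at stayed under log2 4 on every array, with differences of -0.09 and 0.03. Genes whose departure from their own ESC mean was closest to that of Igf1 over the 9 arrays were Eya1, a transcriptional coactivator of organ formation, with a mean absolute difference of 0.14 on the log2 scale, Ubn1, a subunit of the HIRA histone chaperone, at 0.21, and Rgs12, a regulator of G protein signalling, at 0.23.

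Igf1r, the receptor of Igf1 and Igf2, rose about equally on 3 of its 5 probe sets. On 1452982_at the ESC arrays 2, 6, 8 and 10 read 7.80, 8.22, 7.90 and 7.69, and the embryoid body arrays 9.42, 9.45, 9.40, 9.47 and 9.60 in the order 1, 3, 5, 7 and 9. The groups lay more than a log2 unit apart, and the embryoid body arrays hardly differed from each other. The difference was 1.56 ± 0.10 (SE), or 2.96-fold (limma, adjusted p = 5.4e-06), with 1.41 within arrays 1 to 6 and 1.74 within arrays 7 to 10. Probe sets 1426565_at and 1428967_at differed by 1.47 ± 0.15 (SE; limma, adjusted p = 7.79e-05) and 1.51 ± 0.13 (SE; limma, adjusted p = 2.63e-05).

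The remaining Igf1r probe sets did not follow. Probe set 1452108_at read 4.94 to 5.05 in ESCs and 4.91 to 5.01 in embryoid bodies, a difference of -0.03 ± 0.04 (SE), and 1446303_at lay near the floor at 2.96 to 3.42 and 3.12 to 3.19. The change of 1452108_at was smaller than that of 1452982_at by 1.59 on the log2 scale, past the threshold in an exact two-sided permutation test over arrays of the difference between probe sets (adjusted p = 0.0238 over 18 such comparisons; unadjusted p = 0.0159, the smallest that 4 and 5 arrays can give). Of the 18 comparisons 12 passed. In 6 of these, 1446303_at included, the probe set lay under log2 4 on every array, where a change in RNA need not show. Igf1r 1452108_at and Igfbp7 1423585_at also passed and lay above log2 4. Both were flat over all arrays, at 4.91 to 5.05 and 4.63 to 4.71, and whether they respond to the RNA was not tested.

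Insr, which binds insulin and the Igfs and pairs with Igf1r, was not called. Probe set 1434446_at read 7.83, 7.84, 7.49 and 6.89 on ESC arrays 2, 6, 8 and 10, and 8.21, 8.10, 7.84, 7.97 and 7.88 on embryoid body arrays 1, 3, 5, 7 and 9. The groups overlapped narrowly at 7.84, and ESC array 10 was the lowest. The difference was 0.49 ± 0.19 (SE; limma, adjusted p = 0.0831), a miss of the threshold that does not show the levels to be alike. Without ESC array 10 it was 0.28 (limma, adjusted p = 0.152). The other Insr probe sets were near the floor, at 2.21 to 3.62, with differences of -0.18 and -0.05.

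**Figure D2:**
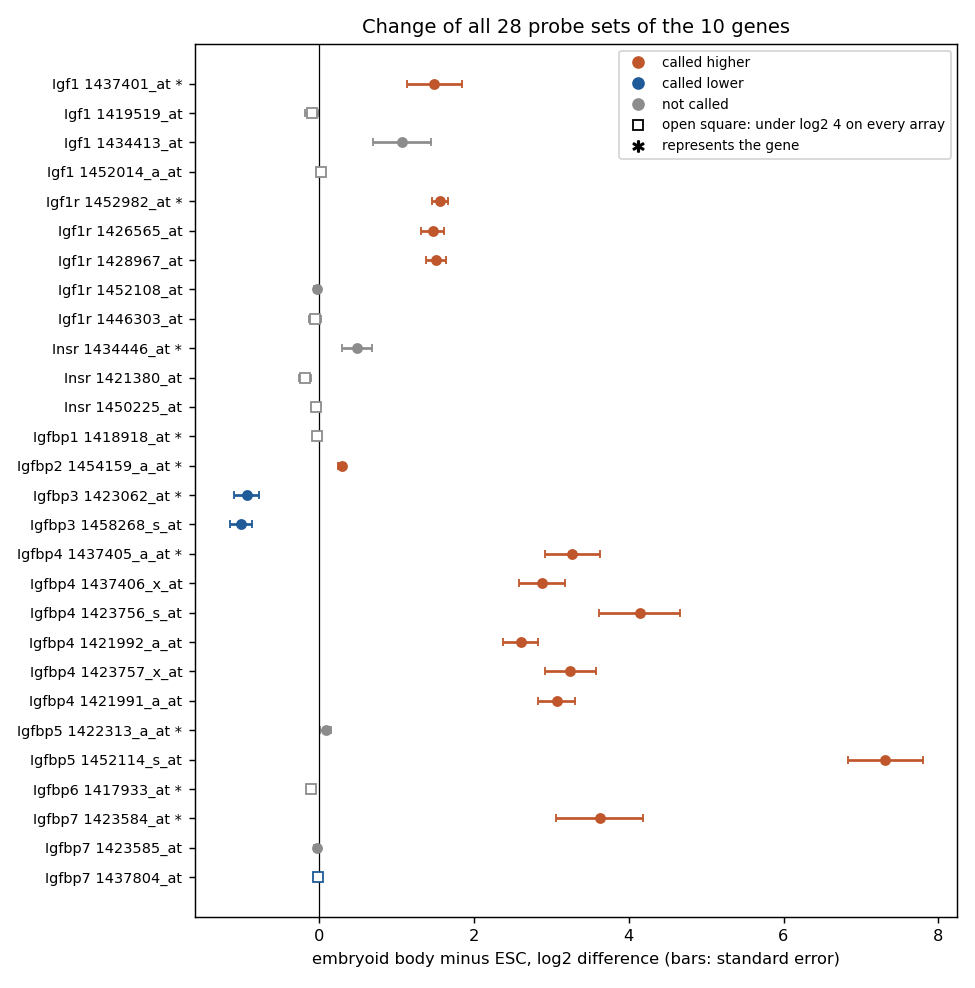
Embryoid body minus ESC difference in log2 value (horizontal axis, bars are the standard error of the limma fit) for all 28 probe sets, grouped by gene, with a star at the one that represents its gene. Orange marks probe sets called higher, blue lower and grey not called, and open squares those under log2 4 on every array. All 6 Igfbp4 probe sets lie between 2.60 and 4.14, and the Igfbp5 probe sets at 0.09 and 7.31.

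Among the binding proteins, Igfbp4 and Igfbp7 rose strongly, Igfbp5 did so on 1 of its probe sets, Igfbp2 rose slightly and Igfbp3 fell. In the RefSeq annotation of GRCm38.p6, Igfbp2 and Igfbp5 are neighbouring protein-coding genes on chromosome 1, and Igfbp1 and Igfbp3 on chromosome 11. The upstream sequences of the binding proteins that moved most in either direction are shown to let their start regions be compared. RefSeq (GRCm38.p6) gave a promoter entry for 9 of the 10 genes, and none was matched for Insr. Each line holds the 250 bases before the start of the gene, 5′ to 3′ on the gene's strand. These are chr11:99040994-99041243 (plus strand) for Igfbp4, chr1:72874866-72875115 (minus) for Igfbp5, chr5:77408046-77408295 (minus) for Igfbp7 and chr11:7213924-7214173 (minus) for Igfbp3. Capitals mark TATA-type motifs, searched on both strands in the forms named after the sequences.

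Igfbp4: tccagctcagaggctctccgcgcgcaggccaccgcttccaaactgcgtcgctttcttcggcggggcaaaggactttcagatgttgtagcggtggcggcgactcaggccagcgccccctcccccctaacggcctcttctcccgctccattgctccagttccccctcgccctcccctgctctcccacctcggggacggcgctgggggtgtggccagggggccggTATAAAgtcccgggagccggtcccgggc

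Igfbp5: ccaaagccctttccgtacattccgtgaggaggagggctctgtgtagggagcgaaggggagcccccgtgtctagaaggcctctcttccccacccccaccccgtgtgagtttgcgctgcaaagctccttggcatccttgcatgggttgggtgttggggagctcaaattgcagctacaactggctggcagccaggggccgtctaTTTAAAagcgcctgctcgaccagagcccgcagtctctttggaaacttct

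Igfbp7: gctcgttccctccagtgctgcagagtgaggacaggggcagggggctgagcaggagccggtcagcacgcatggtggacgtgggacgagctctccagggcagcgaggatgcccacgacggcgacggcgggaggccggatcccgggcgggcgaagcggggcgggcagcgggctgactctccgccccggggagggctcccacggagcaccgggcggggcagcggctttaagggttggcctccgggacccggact

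Igfbp3: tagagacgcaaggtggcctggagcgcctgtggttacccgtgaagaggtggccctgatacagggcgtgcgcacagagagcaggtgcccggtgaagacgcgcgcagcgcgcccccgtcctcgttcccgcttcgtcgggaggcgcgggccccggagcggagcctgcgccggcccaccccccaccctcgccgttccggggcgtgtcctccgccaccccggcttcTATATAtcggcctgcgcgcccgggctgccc

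Igfbp4 held TATAAA from 28 bases before its start and Igfbp3 TATATA from 30 bases before it, while Igfbp5 held TTTAAA from 49 bases before it and Igfbp7 none of these. Of 32851 promoter windows of the same length, 12.4% held TATAAA on either strand, 12.1% TTTAAA and 5.25% TATATA. The GC box GGGCGG, found in 32.7% of the windows on either strand, occurred 4 times upstream of Igfbp7 and not in the other 3 windows. The windows held 22 CG dinucleotides for Igfbp4, 10 for Igfbp5, 26 for Igfbp7 and 32 for Igfbp3, against a median of 6 over all promoters. Igfbp3, which fell, thus held a TATA-like run as Igfbp4 did, and such matches describe the sequence only.

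Igfbp4, a binding protein known mainly as an inhibitor of the Igfs that the protease Pappa cleaves, rose on all of its 6 probe sets. On 1437405_a_at the ESC arrays 2, 6, 8 and 10 read 7.81, 7.78, 9.46 and 9.21, and the embryoid body arrays 1, 3, 5, 7 and 9 read 11.76, 11.85, 11.73, 11.98 and 11.88. ESC arrays 8 and 10 lay about 1.54 above arrays 2 and 6, and every embryoid body array lay above all of them. The difference was 3.27 ± 0.35 (SE), or 9.66-fold (limma, adjusted p = 0.000122). The other probe sets ranged from 2.60 ± 0.23 (SE) on 1421992_a_at to 4.14 ± 0.52 (SE) on 1423756_s_at, each with groups that did not overlap. None of the 6 is of the plain _at type, nor are those of Igfbp2 and Igfbp5. The authors used only that type in their own study, since in their view the others may bind RNA of other genes. Whether the Igfbp4 probe sets do so was not tested.

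The size of the Igfbp4 rise differed between the number ranges. Within arrays 1 to 6 it was 3.98 on 1437405_a_at, and within arrays 7 to 10 it was 2.59. The difference of -1.39 ± 0.12 (SE) was past the threshold in a limma interaction test (adjusted p = 0.00611), as it was for 3 more Igfbp4 probe sets and none of another member. Of all probe sets, 1.16% passed this test. On 1423756_s_at the rise was 5.23 within arrays 1 to 6 and 3.09 within arrays 7 to 10, with ESC arrays 2, 6, 8 and 10 at 6.33, 6.01, 8.60 and 8.31.

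Igfbp5, which binds the Igfs and also matrix components, read differently on its probe sets. On 1452114_s_at the ESC arrays 2, 6, 8 and 10 read 3.11, 1.90, 4.80 and 3.85, and the embryoid body arrays 10.48, 10.74, 10.67, 10.83 and 10.93. ESC values were near the floor on 3 of 4 arrays, and the groups were far apart. The difference was 7.31 ± 0.48 (SE; limma, adjusted p = 6.23e-06). A fold against values near the floor depends on the floor, and with 16 added to each value before the log2 the difference was 5.92 (limma, adjusted p = 2.3e-07). It was 8.13 within arrays 1 to 6 and 6.55 within arrays 7 to 10.

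Probe set 1422313_a_at, which represents Igfbp5 by its mean, read 9.28, 9.25, 9.31 and 9.47 on the ESC arrays and 9.48, 9.33, 9.58, 9.29 and 9.38 on the embryoid body arrays. The groups overlapped, with a difference of 0.09 ± 0.07 (SE; limma, adjusted p = 0.342). The probe sets differed in their change by 7.23 on the log2 scale (exact permutation test, two-sided, adjusted p = 0.0238 over 18 comparisons). In the manufacturer's naming, the ending _a_at marks probes shared by transcripts of 1 gene and _s_at probes that may be shared by transcripts of several, and which transcripts each set reads was not tested.

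Igfbp7, the weak binder found in matrix and vessels, rose on 1 of its 3 probe sets. On 1423584_at the ESC arrays 2, 6, 8 and 10 read 4.58, 3.38, 6.23 and 6.07, and the embryoid body arrays 1, 3, 5, 7 and 9 read 8.29, 8.37, 8.46, 9.24 and 9.11. In both groups the arrays numbered from 7 read higher than those up to 6, and the groups did not overlap. The difference was 3.63 ± 0.56 (SE), or 12.3-fold (limma, adjusted p = 0.00119), with 4.39 within arrays 1 to 6 and 3.03 within arrays 7 to 10. Probe set 1423585_at stayed between 4.63 and 4.71 on all arrays. Probe set 1437804_at, at 1.14 to 1.17, was called lower by 0.01 (limma, adjusted p = 0.0475), and the sign turned, to 0.0039, when arrays were centred on their medians.

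Genes whose departure from their own ESC mean was closest to that of Igfbp7 were Foxc1, a forkhead factor of mesoderm and vessels, with a mean absolute difference of 0.34 over the 9 arrays, Loxl1, an enzyme that crosslinks elastic fibres, at 0.36, and Pmp22, a membrane protein of myelin and other tissues, at 0.36. Foxc1 went from 4.09 ± 0.93 (SD, n = 4) to 7.80 ± 0.87 (SD, n = 5), and Loxl1 from 5.19 ± 0.74 to 8.82 ± 0.23. Igfbp7 had been picked for this as the represented member with the largest change.

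Igfbp3, the main carrier of Igfs in serum, fell on both of its probe sets. On 1423062_at the ESC arrays 2, 6, 8 and 10 read 10.81, 10.89, 10.42 and 10.16, and the embryoid body arrays 9.62, 9.83, 9.75, 9.65 and 9.33. Every embryoid body array lay below every ESC array, and ESC arrays 8 and 10 were nearer to them. The difference was -0.94 ± 0.16 (SE; limma, adjusted p = 0.00229), a level 1.91-fold lower in embryoid bodies. On 1458268_s_at it was -1.01 ± 0.14 (SE; limma, adjusted p = 0.000682). Within arrays 1 to 6 and 7 to 10, 1423062_at differed by -1.12 and -0.80.

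Igfbp2, a binding protein widely made in the early embryo, was high in both groups and rose slightly. Probe set 1454159_a_at read 12.24, 12.28, 12.37 and 12.22 in ESCs and 12.50, 12.63, 12.51, 12.61 and 12.60 in embryoid bodies. The groups did not overlap, and the difference was 0.29 ± 0.04 (SE), or 1.22-fold (limma, adjusted p = 0.000858). It was 0.28 within arrays 1 to 6 and 0.31 within arrays 7 to 10. Igfbp1, a hepatic binding protein controlled by insulin, and Igfbp6, which prefers Igf2, lay near the floor on every array, at 2.06 to 2.11 and 2.28 to 2.55. Neither was called, with differences of -0.02 and -0.11. An array value near the floor does not show that the RNA is absent.

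**Figure D3:**
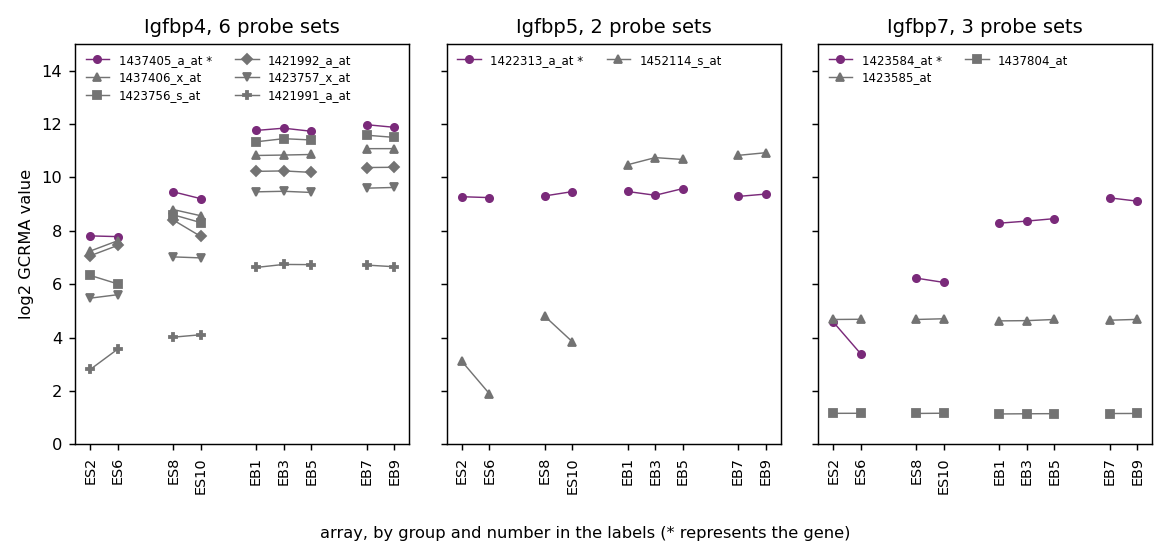
Log2 GCRMA value (vertical axis) of every probe set of Igfbp4, Igfbp5 and Igfbp7 on each array, set out by group and by the number in the labels (horizontal axis), with lines joining arrays of 1 group and number range. ESC arrays 8 and 10 lie above 2 and 6 for all 6 Igfbp4 probe sets, for Igfbp5 1452114_s_at and for Igfbp7 1423584_at. The other Igfbp5 and Igfbp7 probe sets are flat across all 9 arrays.

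Between ESC arrays, Igfbp4, Igfbp5 and Igfbp7 were thus higher on 8 and 10. Igfbp7 1423584_at was 2.17 higher there than on arrays 2 and 6, and Igfbp5 1452114_s_at 1.82. Igf1 1437401_at read 5.12 on array 8, between arrays 2 and 6, and was lower on array 10 alone. Igf1r 1452982_at differed by -0.22 and 1426565_at by 0.24. Some markers of differentiated cells did the same. Of 12 mesenchyme markers 6 were higher on both arrays 8 and 10 than on 2 and 6 (Col1a1, Col1a2, Col3a1, Pdgfrb, Dcn and Prrx1), and none lower. Of 10 cardiac and smooth muscle markers 3 were higher (Acta2, Actc1 and Tagln) and none lower, while Myh6 and Tnnt2 differed by -0.48 and -0.55 in the means with arrays that overlapped. Of 7 endothelial markers 3 were higher and 1 lower, and of 8 neural markers 2 and 1. Pluripotency markers split evenly, with 3 of 10 higher and 3 lower. No visceral endoderm or blood marker was higher, and 1 blood marker was lower. How often this order holds over all genes was not counted. The sums follow the most abundant genes. The summed intensity of 12 mesenchyme markers was 478 to 546 on ESC arrays 2 and 6, 1057 to 1088 on arrays 8 and 10, and 11531 to 12148 in embryoid bodies. That of 10 cardiac and smooth muscle markers was 5712 to 6019, 11441 to 13017, and 34668 to 41644. On the ESC arrays Postn and Thy1 of the first list and Tnnt2 and Myl7 of the second stayed under log2 4, Thy1 in embryoid bodies as well.

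The 10 pluripotency markers summed to 40297 and 41367 on ESC arrays 2 and 6 and to 38267 and 40654 on arrays 8 and 10. The part of such cells in the binding protein values was not tested. In bulk RNA, fewer cells of a type and less RNA per cell cannot be told apart. Of 10 visceral endoderm and liver markers 2 rose in embryoid bodies, and Apoa1, Apob, Amn, Cubn and Hnf4a lay under log2 4 on all 9 arrays. Of 7 endothelial markers 5 rose, with summed intensities of 180 to 204 in ESCs and 329 to 434 in embryoid bodies, and Tie1 lay under log2 4 throughout. Among embryoid body arrays, 7 and 9 exceeded 1, 3 and 5 by 0.66 for Igf1 1437401_at and by 0.80 for Igfbp7 1423584_at. On the same arrays the 5 markers of embryonic blood summed to 3011 to 3747, against 11246 to 11848 on arrays 1, 3 and 5, the neural markers to 701 to 763 against 520 to 542, the cardiac and smooth muscle markers to 41622 to 41644 against 34668 to 38615, and the pluripotency markers to 3852 to 4755 against 5972 to 7370. On arrays 7 and 9 the endothelial markers summed to 329 to 336, against 344 to 434 on arrays 1, 3 and 5. The visceral endoderm and liver markers summed to 238 to 261, against 280 to 387. The mesenchyme markers overlapped, at 11693 to 12148 against 11531 to 12144. The part of these cells in the Igf1 and Igfbp7 values was not tested either.

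Of 48 other genes of the pathway, listed by role, 42 had a probe set of their own, and each was followed by its representative alone. In embryoid bodies 17 were higher, 4 lower and 21 not called, with a median difference of 0.08. Over all genes, 15.7% were higher and 14.7% lower, with a median difference of -0.04, and the counts by role below are read beside these shares. This list too was chosen with earlier results of these data known. Every role but the Foxo factors held at least 1 gene called higher. Counts per role were small, as with 1 of 6 in the mTOR branch and none of 3 Foxo factors, and do not set the latter apart.

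Igf2, the main embryonic ligand, rose from 8.003, 8.02, 9.39 and 9.22 on ESC arrays 2, 6, 8 and 10 to between 13.81 and 13.97 on the embryoid body arrays, a difference of 5.24 ± 0.29 (SE; limma, adjusted p = 2.48e-06). As for Igfbp4, ESC arrays 8 and 10 were the higher ones. Igf2r, the receptor that carries Igf2 to lysosomes, rose by 3.22 ± 0.18 (SE; limma, adjusted p = 2.22e-06), and its ESC arrays 8 and 10 were the lower ones, at 6.72 and 6.52 against 7.41 and 7.19. Ins2, the insulin gene measured here, and Insrr, the orphan relative of the insulin receptor, were not called, with differences of -0.04 and -0.01. Over all arrays Ins2 lay within 4.55 to 5.05 and Insrr within 7.53 to 7.86. Whether these probe sets respond to the RNA was not tested.

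Of the proteins that cleave or accompany binding proteins, Pappa, the protease that cleaves Igfbp4, rose by 1.64 ± 0.48 (SE; limma, adjusted p = 0.04). That call was lost when any of 6 arrays was left out (ESC arrays 2 and 6, embryoid body arrays 1, 3, 5 and 7). Pappa read 3.27 and 3.41 on ESC arrays 2 and 6, near the floor, and 4.78 and 5.53 on arrays 8 and 10. Embryoid body arrays read 5.47 to 6.74, so the groups overlapped. The rise was 2.31 within arrays 1 to 6 and 1.09 within arrays 7 to 10. Htra1, a secreted serine protease that cuts Igfbp5, rose by 1.42 ± 0.25 (SE; limma, adjusted p = 0.00234). Igfals, the third subunit of the serum complex, Pappa2 and Stc1 lay near the floor on every array, and Stc2, an inhibitor of Pappa, differed by -0.05. The Stc2 probe set lay within 6.85 to 7.09 on every array, and whether it responds to the RNA was not tested.

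Of the 10 receptor substrates and adaptors 4 rose and 2 fell. Irs1, the main substrate of Igf1r, rose by 2.21 ± 0.23 (SE; limma, adjusted p = 8.91e-05), from 7.62 to 8.79 on ESC arrays to 10.14 to 10.69 on embryoid body arrays. Irs4, a further substrate, rose by 2.72 ± 0.51 (SE; limma, adjusted p = 0.00402), and Grb10, an imprinted adaptor that inhibits both receptors, by 1.504 ± 0.11 (SE; limma, adjusted p = 1.23e-05). Gab1, a docking protein, fell by 1.72 ± 0.07 on the log2 scale (SE; limma, adjusted p = 5.59e-07). Irs2 read 4.64 and 4.63 in the group means, on a probe set that lay within 4.61 to 4.65 on every array. So flat a reading need not show the level of the RNA.

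In the PI3K and Akt group 7 of 10 genes rose and 1 fell. The regulatory subunit Pik3r3 rose by 3.31 ± 0.36 (SE; limma, adjusted p = 0.000129), Akt1 by 1.32 ± 0.13, Pik3r1 by 1.29 ± 0.16 and Gsk3b, a kinase that Akt inhibits, by 1.06 ± 0.10. Pik3cb, a catalytic subunit, differed by -0.93 ± 0.14. Of 6 genes of the mTOR branch, Tsc1, a brake on mTOR, alone was called, at 0.91 ± 0.21, while Mtor differed by -0.02. Foxo1, Foxo3 and Foxo4, factors that Akt keeps out of the nucleus, differed by -0.37, 0.28 and 0.29, with no call. Of the proteins that bind Igf2 mRNA, Igf2bp3 rose by 0.58 ± 0.07 and Igf2bp1 differed by -0.50 ± 0.08, which passed the test as a fall.

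**Figure D4:**
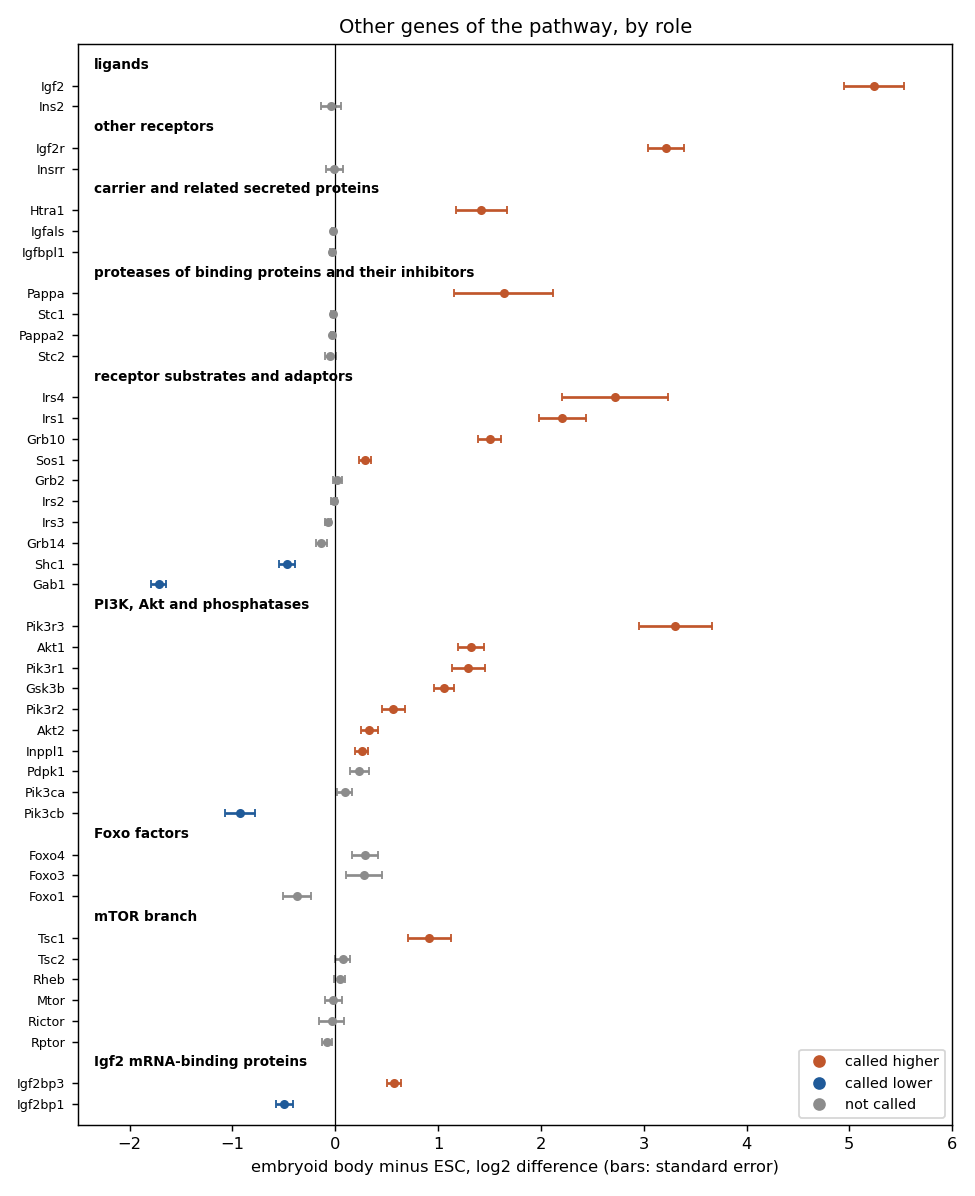
Embryoid body minus ESC difference in log2 value (horizontal axis, bars are the standard error of the limma fit) for the 42 other genes of the pathway, grouped by role and ordered by difference within it. Orange marks genes called higher, blue lower and grey not called. Igf2 is the furthest to the right at 5.24 and Gab1 the furthest to the left at -1.72, and none of the 3 Foxo factors was called.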

How the data were processed

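RNA of 4 ESC and 5 embryoid body samples was measured on 1 Affymetrix mouse genome array each, grouped by the titles. The authors deposited GCRMA values as intensities on a linear scale, background-subtracted, normalized and summarized per probe set. Which arrays were normalized together is not given in the sources used here. With arrays, precision is set by how many there were. The log2 of each value was taken without further normalization. Of 45101 probe sets 64 controls were left out, and of the others 34945 were paired with 1 gene symbol, 932 with several and 9160 with none.

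Embryoid bodies and ESCs were compared by limma 3.58.1 (eBayes with trend and robust, two-sided, R 4.3.3) over the 45037 probe sets, and p-values were adjusted by the Benjamini-Hochberg method. The fit was tested on simulated data whose noise was drawn independently for each array. Such data do not carry the spread between number ranges seen here. Changes of probe sets of 1 gene were compared by exact permutation over arrays (scipy 1.17.1). All 10 members were named. Of the pathway list, genes were named that had the largest change of their role or a called change of 1 or more, and others were added after their values were seen. Members and lists were chosen with earlier results of these data known. Alternatives were other normalizations, a pseudocount, a filter, other variance models, a fold threshold, plain probe sets, the mean over probe sets, number ranges and each array left out.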

Additional observations from a re-analysis of the deposited data

Results flagged for a closer look

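Of the 56 groups of arrays tested, 2 held an array far from the others by Dixon's criterion, and chance alone flags about 1 in 20 groups. For Igf1 1437401_at, ESC array 10 read 3.50 where the other ESC arrays read 5.02 to 5.13. For Igf1 1419519_at, near the floor, embryoid body array 1 read 3.404 where the others read 3.81 to 3.85.

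The embryoid body minus ESC change differed between arrays 7 to 10 and arrays 1 to 6 for 4 Igfbp4 probe sets in the limma interaction test. The differences of the changes were -1.39 on 1437405_a_at (adjusted p = 0.00611), -1.005 on 1437406_x_at (adjusted p = 0.0482), -2.14 on 1423756_s_at (adjusted p = 0.00503) and -1.31 on 1423757_x_at (adjusted p = 0.00324). The remaining Igfbp4 probe sets, 1421992_a_at and 1421991_a_at, differed by -0.68 and -0.88 and did not pass (limma, adjusted p = 0.42 and 0.284).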

How the results depend on the processing

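No paired analysis was possible because the groups share no number, ESC arrays being 2, 6, 8 and 10 and embryoid body arrays 1, 3, 5, 7 and 9, and no label ties one array to another. Number range was fitted as a term instead.

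Over all alternatives, 817 values kept their direction and side of the threshold, 15 gained a call, 28 lost one and 7 turned sign, while 161 counts stayed within 1.5 times the value given and 23 did not. The member genes called higher went from 5 to 3 with plain probe sets, a type that Igfbp2, Igfbp4 and Igfbp5 lack, and were 5 whichever array was left out. Those called lower went from 1 to 3 with array weights, 2 with probe sets averaged per gene, 2 with number range as a term and 0 with a fold of at least 2, and were 1 to 3 with each array left out (2 without ESC array 8, 3 without embryoid body array 9), the additions being Igfbp1 and Igfbp6 near the floor. Member probe sets called higher went from 13 to 5 with plain probe sets (13 to 14 with each array left out). Those called lower went from 3 to 5 with array weights, 1 with plain probe sets and 1 with the fold threshold (2 to 6 with each array left out, 6 without embryoid body array 9). The fold threshold took the pathway genes from 17 to 11 higher (15 to 18 with each array left out) and from 4 to 1 lower, and all genes from 2863 to 1069 higher (2565 to 2962 with each array left out) and from 2666 to 661 lower. Array weights gave 7 pathway genes and 5109 genes lower, and leaving out arrays gave 4 to 6 and 2345 to 4819, the last without embryoid body array 9.

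The 12 probe sets that differed from the representative of their gene became 0 to 12 with each array left out, and 0 whichever ESC array was left out, where the smallest exact p that 3 and 5 arrays can give is 0.0357, or 0.0536 adjusted when 12 of 18 reach it. Igfbp5 rose by 3.70 with the mean over its probe sets and by 7.31 with the probe set of the highest group mean, an alternative chosen after seeing the data, both called. The sign turned for Igfbp1 under quantile normalization (0.0080), for the representative of Igfbp5 (-0.056) and Igf1 1419519_at (0.0057) within arrays 7 to 10, for Igfbp7 1437804_at with centred arrays (0.0039), and for Igf1r 1446303_at under quantile normalization (0.0075), within arrays 7 to 10 (0.069) and without ESC array 6 (0.024, in a range of -0.13 to 0.024 with each array left out). The cause of these changes was not tested.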
